A study of Mus musculus with 27 samples.

Results

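The 9 genes described here encode the 2 corticosteroid receptors of the brain, 5 genes that these receptors are known to induce, and 2 enzymes of steroid and phenol metabolism. They were picked by gene name: Nr3c1 and Nr3c2 (the receptors), Fkbp5, Tsc22d3, Sgk1, Per1 and Zbtb16 (the targets), and Hsd11b1 and Sult1a1 (the enzymes). All 9 were present among the 51826 genes of the deposited gene expression table, and all 9 passed a filter on low counts that left 19969 genes to test. RNA came from whole hippocampi of ICR mice, an outbred laboratory strain. The OVX Xmo group (n = 4) had been ovariectomized, which removes the ovaries, and treated with xanthohumol (Xmo), a flavonoid from hops that carries a prenyl group. The OVX saline group (n = 4) had been ovariectomized and given saline, the sham Xmo group (n = 4) had a sham operation and xanthohumol, and the sham saline group (n = 3) had a sham operation and saline. The age of the mice, the dose of xanthohumol, the length of treatment and the hour of tissue collection are not stated in the labels. Nothing in the labels states that libraries of a group came from separate animals, so every p-value measures the spread between libraries, which may be technical.

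Corticosterone, the main glucocorticoid of the mouse, binds both receptors. The mineralocorticoid receptor binds it with the higher affinity and is occupied at low hormone levels, whereas the glucocorticoid receptor fills during stress and at the daily hormone peak. Without hormone the glucocorticoid receptor sits in the cytoplasm in a complex with heat shock proteins and immunophilins. With hormone it enters the nucleus and binds DNA as a dimer on inverted repeats of a short half-site. The hippocampus is known for expressing both receptors and for its part in the feedback that limits the stress response.

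The promoters of 3 members are shown first as examples, and the count of a gene sums over all of its start sites. RefSeq windows on GRCm38.p6, each running from 250 bases before a transcript start to 50 bases after it, were available for 7 members, as 15 windows of 300 bases. Sgk1 had 6 windows, Tsc22d3 had 3 and Per1 had 2. Capitals mark the motifs that were found, and each window is written 5′ to 3′ on the strand of its gene. The first is a Tsc22d3 window at chrX:140600473-140600772 (minus strand), chosen because Tsc22d3 passed the test below in OVX saline against sham saline. Among the Tsc22d3 windows, only this held a glucocorticoid half-site. The second is the Sgk1 window at chr10:21993640-21993939 (plus strand), chosen for its inverted repeat, and the third is the Per1 window at chr11:69098699-69098998 (plus strand), chosen for its E-box, the element read by the circadian clock.
Tsc22d3: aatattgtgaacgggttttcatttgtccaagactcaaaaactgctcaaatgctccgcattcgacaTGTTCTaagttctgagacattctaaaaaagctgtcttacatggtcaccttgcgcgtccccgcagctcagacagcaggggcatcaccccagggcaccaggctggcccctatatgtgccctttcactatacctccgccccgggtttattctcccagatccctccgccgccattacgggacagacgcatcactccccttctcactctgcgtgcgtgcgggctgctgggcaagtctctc
Sgk1: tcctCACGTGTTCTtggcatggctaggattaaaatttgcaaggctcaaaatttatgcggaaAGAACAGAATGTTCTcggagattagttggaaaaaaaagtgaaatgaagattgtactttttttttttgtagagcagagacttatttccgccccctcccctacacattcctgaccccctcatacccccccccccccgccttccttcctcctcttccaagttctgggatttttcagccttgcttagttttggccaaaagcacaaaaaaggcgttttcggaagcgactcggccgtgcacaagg
Per1: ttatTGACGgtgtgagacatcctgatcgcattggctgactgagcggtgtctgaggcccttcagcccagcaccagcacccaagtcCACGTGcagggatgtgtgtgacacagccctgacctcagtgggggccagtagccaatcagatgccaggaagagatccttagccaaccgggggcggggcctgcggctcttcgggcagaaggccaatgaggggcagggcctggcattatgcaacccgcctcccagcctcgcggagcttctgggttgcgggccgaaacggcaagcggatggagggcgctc

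The glucocorticoid half-site AGAACA was searched on both strands, and 18.97% of 32851 RefSeq promoter windows of the same length held it. Among the member windows, 5 of 15 held it, and these belonged to Sult1a1, Sgk1 and Tsc22d3. In the Tsc22d3 window above it lies 185 bases before the start, on the opposite strand. The inverted repeat, written as GNACA and TGTNC with 3 bases between them, was rare, at 0.475% of all windows, and was found in the printed Sgk1 window alone among the 15. There it begins 188 bases before the start and overlaps 2 copies of the half-site on opposite strands. The E-box CACGTG occurred in 7.15% of all windows and in 3 member windows, of Sgk1, Per1 and Fkbp5. In the Sgk1 window the E-box overlaps another copy of the half-site, and in the Per1 window it begins 166 bases before the start. The cyclic AMP element TGACGTCA (1.79% of all windows) was in no member window. Its shorter form TGACG (20.81% of all windows) was in 4, of Sgk1, Per1 and Tsc22d3. These matches describe letters in the windows, and the gene counts do not separate the starts.

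Library totals ran from 20.8 to 39.1 × 1e+06 counts, and the count of a member in 1 library from 229 (Sult1a1) to 5060 (Nr3c2). Markers of the labelled tissue were present in every library, with 7 neuronal genes summing to between 7690 and 10370 CPM (counts per 1e+06, scaled here by the trimmed mean of M-values) and 8 granule cell genes of the dentate gyrus to between 400 and 542 CPM. The sham saline libraries stood apart, although sham saline 1 lay within the sham Xmo range: protein genes of the mitochondrial genome took 12.4% to 16.5% of counts in OVX Xmo, 11.9% to 16.5% in OVX saline and 14.3% to 19.2% in sham Xmo, against 19.0%, 34.1% and 24.2% in sham saline 1 to 3. The choroid plexus list of 10 genes varied most, summing to between 246 and 2411 CPM in OVX Xmo, 265 and 744 CPM in OVX saline, 360 and 10850 CPM in sham Xmo, and 377 and 1804 CPM in sham saline. In bulk tissue, fewer cells of a type and less RNA per cell cannot be told apart.

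Levels can be compared between genes only per unit length, so the order below uses the deposited TPM (transcripts per 1e+06), which corrects for gene length. Over the 15 libraries the mean TPM was 68.6 ± 16.3 for Sgk1, 58.1 ± 18 for Tsc22d3 and 47.3 ± 13.0 for Hsd11b1 (SD, n = 15). The receptors came next, with a mean TPM of 39.4 ± 10.3 for Nr3c2 and 35.3 ± 7.62 for Nr3c1. Zbtb16 followed at 24.3 ± 6.5 TPM, Per1 at 23.5 ± 5.31 TPM, Fkbp5 at 18.8 ± 4.50 TPM and Sult1a1 at 15.8 ± 2.99 TPM. Neighbours in this order differed by less than the larger of their SDs, with 1 exception, the step between Nr3c1 and Zbtb16. Of the 5 targets, 2 lay above the receptors and 3 below. TPM is not scaled between libraries, and in sham saline the median of all genes lay lower by 0.54 to 0.61 on the log2 scale than in the other 3 groups, so groups are compared below on scaled CPM.

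**Figure D1:**
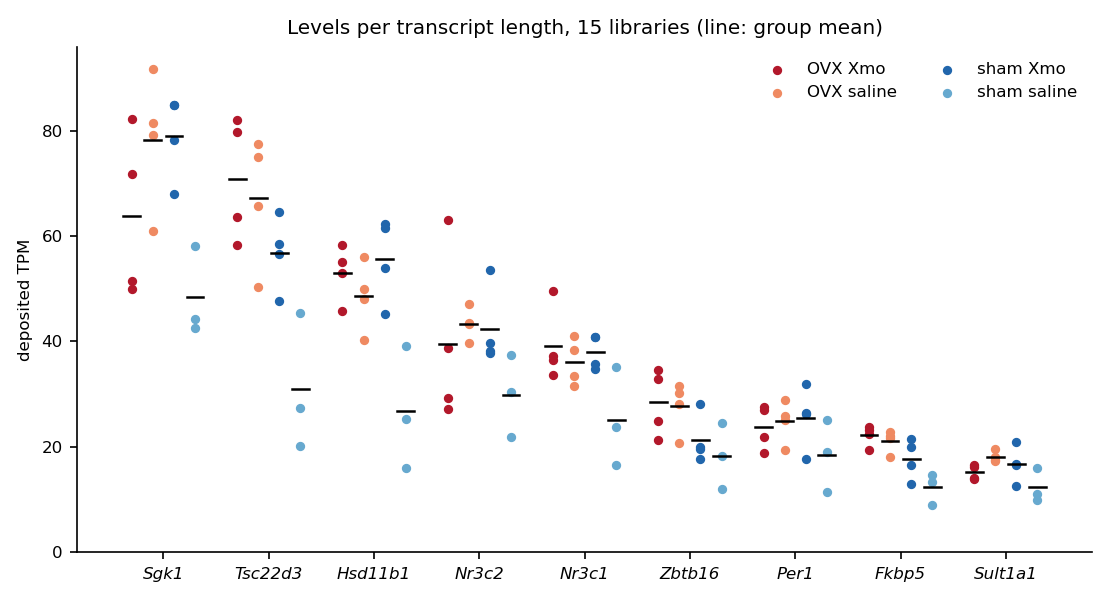
Deposited TPM (y axis, transcripts per 1e+06) of the 9 members (x axis), ordered by their mean over 15 libraries. Each point is 1 library, coloured by group, and the short line is the group mean; Sgk1 is leftmost with a mean of 68.6 TPM and Sult1a1 rightmost with 15.8 TPM, and sham saline has the lowest group mean of each gene.

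Receptor transcripts showed no change that passed the test in any of the 6 comparisons. Nr3c1, the glucocorticoid receptor (ENSMUSG00000024431, chromosome 18:39410545-39491301, minus strand, GRCm38.p6), had 90.1, 112, 87.0 and 110 CPM in OVX Xmo and 93.0, 88.8, 98.9 and 88.8 CPM in OVX saline. It had 133, 108, 93.0 and 91.2 CPM in sham Xmo, against 115, 97.0 and 102 CPM in sham saline. The groups overlapped throughout, and the highest library, sham Xmo 1, was 1.53 times the lowest, OVX Xmo 3. The log2 fold change of Nr3c1 was −0.18 in OVX saline against sham saline (SE 0.13, 95% interval −0.46 to 0.10, edgeR adjusted p = 0.423). It was 0.11 in OVX Xmo against OVX saline (95% interval −0.15 to 0.37, edgeR adjusted p = 0.998).

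Nr3c2, the mineralocorticoid receptor (ENSMUSG00000031618, chromosome 8:76899442-77245012, plus strand), was the most variable member. It had 65.9, 62.0, 95.2 and 189 CPM in OVX Xmo and 120, 137, 111 and 98.0 CPM in OVX saline. It had 126, 116, 148 and 99.3 CPM in sham Xmo, against 118, 128 and 121 CPM in sham saline. The OVX Xmo group held the lowest and the highest library of all 15, a span of 3.04 times, and 3 of its 4 libraries lay below every library of the other groups. Its SD within groups was 0.42 on the log2 scale, against a median of 0.17 over 10133 genes with a mean of at least 10 CPM. The mean was 103 ± 59.0 CPM in OVX Xmo (SD, n = 4) and 122 ± 5.02 CPM in sham saline (SD, n = 3), with a log2 fold change of −0.25 (SE 0.29, edgeR adjusted p = 0.691). Without OVX Xmo 4 the same comparison gave −0.72 (SE 0.17, edgeR adjusted p = 0.0351), so that 1 library decides the call. It was the 1 of 23 alternative analyses in which Nr3c2 passed there. Against OVX saline and against sham Xmo, Nr3c2 in OVX Xmo passed in 0 of 23 each, with log2 fold changes as low as −0.65 and −0.72. The genes overlapping the Nr3c2 span cover 0.429% of it.

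The ratio of Nr3c2 to Nr3c1 in TPM, a measure within 1 library, was 0.799, 0.551, 1.15 and 1.69 in OVX Xmo and 1.38, 1.41, 0.969 and 1.13 in OVX saline. It was 0.933, 0.971, 1.54 and 1.06 in sham Xmo, against 1.07, 1.32 and 1.28 in sham saline. The means were 1.05 ± 0.495 in OVX Xmo, 1.22 ± 0.210 in OVX saline, 1.13 ± 0.283 in sham Xmo (SD, n = 4 each) and 1.22 ± 0.135 in sham saline (SD, n = 3). The groups overlapped, and the spread in OVX Xmo was the widest. In that group the CA1 pyramidal cell markers, a list of 5 genes, summed to 399, 229, 401 and 328 CPM and the list of 8 thalamus and habenula markers to 143, 805, 254 and 280 CPM. No gene of either list was at 0, and their part in the spread of Nr3c2 was not tested.

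**Figure D2:**
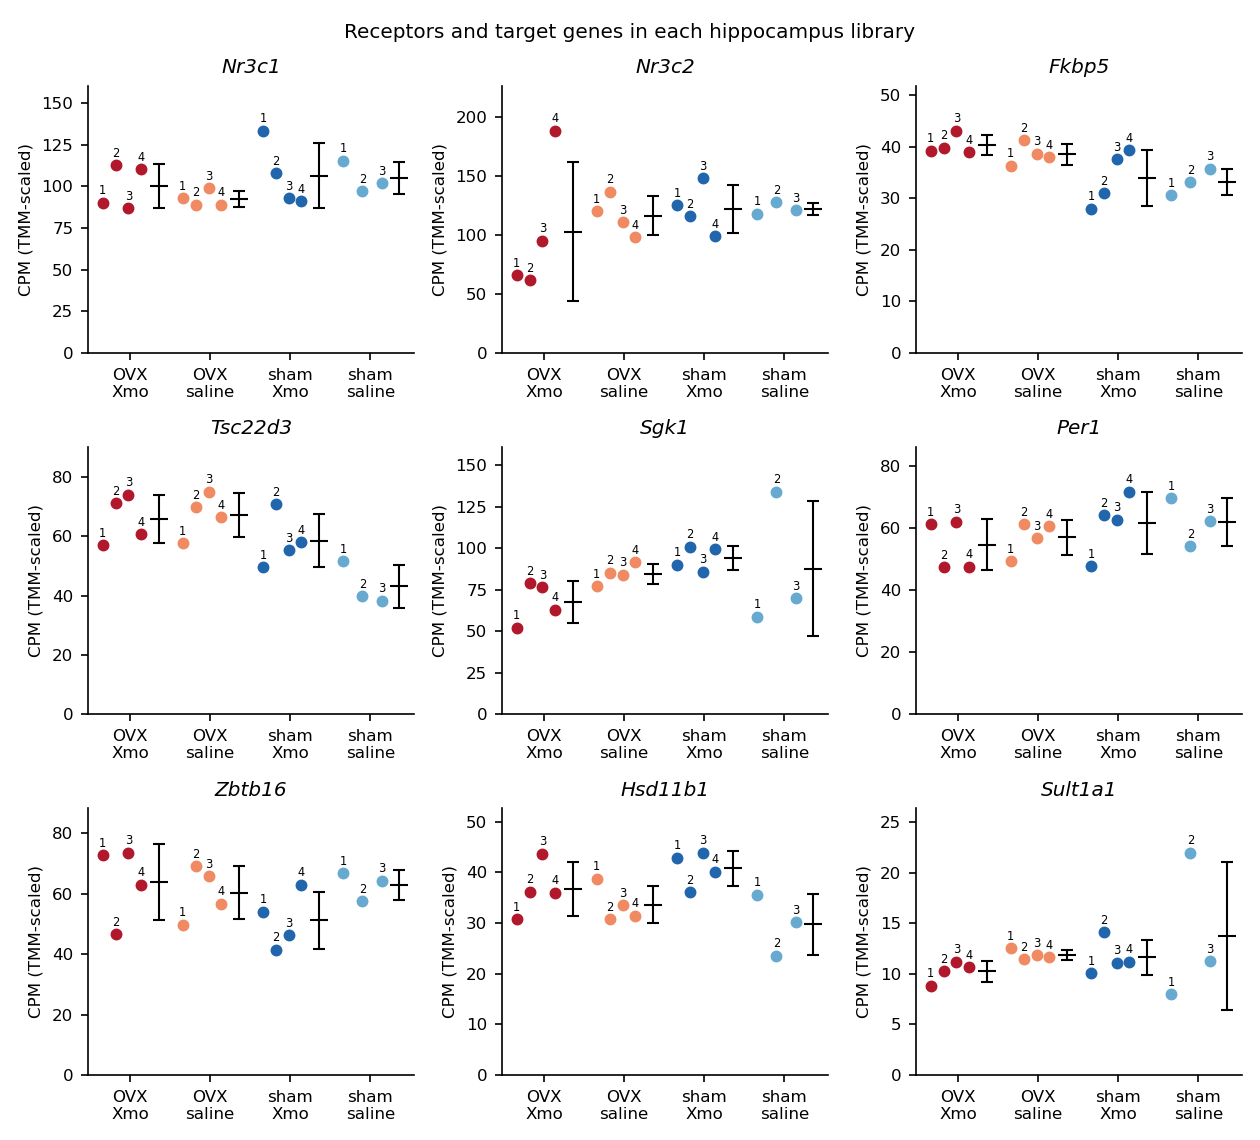
Scaled CPM (y axis, counts per 1e+06) of each of the 9 members in its own panel, with the groups in the order OVX Xmo, OVX saline, sham Xmo and sham saline; each numbered point is 1 library and the bar beside the points is the mean with its SD. Tsc22d3 is lowest in sham saline (43.2 ± 7.26 CPM) and the OVX Xmo points of Nr3c2 are spread from 62.0 to 189 CPM.

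Fkbp5 encodes an immunophilin that binds the receptor complex and lowers its affinity for hormone, and the receptor induces it, which closes a feedback loop. Fkbp5 (ENSMUSG00000024222, chromosome 17:28399095-28517524, minus strand) had 39.2, 39.8, 43.1 and 38.9 CPM in OVX Xmo and 36.3, 41.2, 38.6 and 38.0 CPM in OVX saline. It had 28.0, 30.9, 37.6 and 39.4 CPM in sham Xmo, against 30.6, 33.1 and 35.7 CPM in sham saline. All 8 libraries of ovariectomized mice lay above all 3 sham saline libraries, while the sham Xmo libraries spanned both ranges. The means were 40.3 ± 1.94 CPM in OVX Xmo, 38.5 ± 2.03 CPM in OVX saline and 34 ± 5.38 CPM in sham Xmo (SD, n = 4 each), and 33.1 ± 2.54 CPM in sham saline (SD, n = 3). The log2 fold change was 0.28 in OVX Xmo against sham saline (95% interval 0.04 to 0.52, edgeR adjusted p = 0.192) and 0.22 in OVX saline against sham saline (95% interval −0.02 to 0.46, edgeR adjusted p = 0.248). Neither passed, nor did OVX Xmo against sham Xmo, at 0.24 (SE 0.10, edgeR adjusted p = 0.441). Fkbp5 had the smallest SD within groups of the 9 members, 0.14 on the log2 scale.

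Tsc22d3 was the member whose difference passed the test. It encodes GILZ, a leucine zipper protein that the glucocorticoid receptor induces and that restrains inflammatory transcription. Tsc22d3 (ENSMUSG00000031431, chromosome X:140539528-140600659, minus strand) had 57.1, 71.3, 74.1 and 60.7 CPM in OVX Xmo and 57.6, 69.7, 75.1 and 66.4 CPM in OVX saline. It had 49.6, 70.8, 55.4 and 57.9 CPM in sham Xmo, against 51.5, 39.8 and 38.3 CPM in sham saline. The sham saline libraries lay below all 8 libraries of ovariectomized mice, and sham saline 1 lay within the range of sham Xmo. The means were 65.8 ± 8.17 CPM in OVX Xmo, 67.2 ± 7.34 CPM in OVX saline and 58.4 ± 8.94 CPM in sham Xmo (SD, n = 4 each), and 43.2 ± 7.26 CPM in sham saline (SD, n = 3).

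Tsc22d3 rose in OVX saline against sham saline by a log2 fold change of 0.64, or 1.56-fold (SE 0.14, 95% interval 0.33 to 0.95, edgeR adjusted p = 0.0246). Its log2 fold change in OVX Xmo against sham saline was 0.61, or 1.52-fold (SE 0.14, edgeR adjusted p = 0.0531), just missing the threshold of 0.05. In sham Xmo against sham saline it was 0.44, or 1.35-fold (SE 0.14, edgeR adjusted p = 0.127). These 3 comparisons share the 3 sham saline libraries. In OVX Xmo against sham Xmo, the surgery comparison without them, the Tsc22d3 libraries overlapped. The log2 fold change there was 0.17 (SE 0.13, edgeR adjusted p = 0.711), which did not pass. In OVX Xmo against OVX saline the log2 fold change was −0.03, with a 95% interval of −0.31 to 0.25 (edgeR adjusted p = 0.998). The interaction of surgery and Xmo, defined as the Xmo response after OVX less the response after sham surgery, was −0.47 (SE 0.19, edgeR adjusted p = 0.236).

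The Tsc22d3 call in OVX saline against sham saline was lost when sham saline 2 (edgeR adjusted p = 0.0917) or sham saline 3 (edgeR adjusted p = 0.0914) was left out. It was also lost without OVX saline 2 (edgeR adjusted p = 0.0684), OVX saline 3 (edgeR adjusted p = 0.0644) or OVX saline 4 (edgeR adjusted p = 0.0588), with log2 fold changes of 0.56 to 0.62 in these 5 refits. The Tsc22d3 difference in OVX Xmo against sham saline passed without sham saline 1 (edgeR adjusted p = 0.0294), sham Xmo 1 (edgeR adjusted p = 0.0404) or OVX Xmo 4 (edgeR adjusted p = 0.0359). The mitochondrial share moved with the same contrast. With the mitochondrial genes removed, the log2 fold change in OVX saline against sham saline was 0.64 (edgeR adjusted p = 0.0256). That refit keeps the same libraries in the contrast, so the part of the mitochondrial share in the Tsc22d3 difference was not tested. Among cell type lists, 3 of 10 endothelial genes, 2 of 6 blood and neutrophil genes and 1 of 8 pericyte and smooth muscle genes fell in OVX saline against sham saline, while 2 of 7 microglia, 1 of 9 astrocyte and 1 of 8 granule cell genes rose. Of all genes, 6.24% passed there. The summed microglia level was 288 to 316 CPM in OVX saline against 233 to 280 CPM in sham saline, and its part in the Tsc22d3 difference was not tested.

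Sgk1 encodes a kinase, induced through both receptors, that regulates ion channels and transporters. Sgk1 (ENSMUSG00000019970, chromosome 10:21882184-21999903, plus strand) had 52.0, 79.1, 76.6 and 63.0 CPM in OVX Xmo and 77.1, 85.4, 84.0 and 91.7 CPM in OVX saline. It had 90.1, 101, 86.0 and 99.5 CPM in sham Xmo, against 58.9, 134 and 70 CPM in sham saline. The sham saline group held the highest library of all, and all 4 OVX Xmo libraries lay below all 4 sham Xmo libraries. The log2 fold change in OVX Xmo against sham Xmo was −0.48 (95% interval −0.91 to −0.05, edgeR adjusted p = 0.444), which did not pass. In OVX Xmo against OVX saline it was −0.32 (SE 0.20, edgeR adjusted p = 0.998). The interaction was −0.43 (SE 0.30, edgeR adjusted p = 0.495), and without sham saline 2 it was −0.86 (SE 0.19, edgeR adjusted p = 0.0498). Sham saline 2 was also the library with the largest mitochondrial share, 34.1%, and its part in the Sgk1 level was not tested.

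Per1 encodes a repressor of the circadian clock that the glucocorticoid receptor and cyclic AMP signalling also induce. Per1 (ENSMUSG00000020893, chromosome 11:69095217-69109960, plus strand) had 61.2, 47.4, 62.0 and 47.5 CPM in OVX Xmo and 49.2, 61.1, 56.8 and 60.5 CPM in OVX saline. It had 47.8, 64.1, 62.6 and 71.7 CPM in sham Xmo, against 69.5, 54.1 and 62.2 CPM in sham saline. The 4 groups overlapped, and the highest library was 1.51 times the lowest, the narrowest span of the 9 members. No comparison of Per1 passed, and its log2 fold changes ran from −0.18 in OVX Xmo against sham saline (edgeR adjusted p = 0.527) to −0.01 in sham Xmo against sham saline (edgeR adjusted p = 0.983).

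Zbtb16 encodes PLZF, a zinc finger repressor that glucocorticoids induce in many human cell types. Zbtb16 (ENSMUSG00000066687, chromosome 9:48654297-48836222, minus strand) had 72.7, 46.6, 73.7 and 63.0 CPM in OVX Xmo and 49.8, 69.1, 65.8 and 56.8 CPM in OVX saline. It had 54.0, 41.5, 46.2 and 63.0 CPM in sham Xmo, against 66.8, 57.5 and 64.3 CPM in sham saline. Sham Xmo had the lowest mean, 51.2 ± 9.39 CPM, against 62.9 ± 4.84 CPM in sham saline, but its libraries overlapped with those of every other group. The log2 fold change was −0.30 in sham Xmo against sham saline (SE 0.17, edgeR adjusted p = 0.369) and 0.32 in OVX Xmo against sham Xmo (SE 0.16, edgeR adjusted p = 0.503). The interaction was 0.38 (SE 0.23, edgeR adjusted p = 0.421).

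Hsd11b1 encodes 11-beta-hydroxysteroid dehydrogenase type 1, which regenerates active corticosterone from its inert keto form inside the cell. Hsd11b1 (ENSMUSG00000016194, chromosome 1:193221634-193264075, minus strand) had 30.8, 36.2, 43.7 and 36 CPM in OVX Xmo and 38.8, 30.7, 33.6 and 31.5 CPM in OVX saline. It had 42.9, 36.1, 43.9 and 40.2 CPM in sham Xmo, against 35.6, 23.6 and 30.1 CPM in sham saline. The 4 sham Xmo libraries lay above the 3 sham saline libraries, by a margin of less than 1 CPM at the nearest pair. Their means were 40.8 ± 3.49 CPM in sham Xmo (SD, n = 4) and 29.8 ± 6.03 CPM in sham saline (SD, n = 3), with a log2 fold change of 0.45, or 1.37-fold (SE 0.14, edgeR adjusted p = 0.116). The difference did not pass, and in OVX Xmo against OVX saline the log2 fold change was 0.12 (SE 0.13, edgeR adjusted p = 0.998). The Hsd11b1 span overlaps other annotated genes along its whole length, Lamb3 on the other strand among them. The labels and headers do not say whether counting used strand, and those genes reached at most 2.89 CPM in these libraries. How many reads the overlapping genes share with Hsd11b1 was not tested, so its counts are uncertain.

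Sult1a1 encodes a sulfotransferase that adds sulfate to phenols, a class to which xanthohumol and several hormones belong. Sult1a1 (ENSMUSG00000030711, chromosome 7:126672865-126676432, minus strand) had 8.82, 10.2, 11.2 and 10.7 CPM in OVX Xmo and 12.6, 11.4, 11.8 and 11.6 CPM in OVX saline. It had 10.1, 14.1, 11.1 and 11.2 CPM in sham Xmo, against 8, 22 and 11.2 CPM in sham saline. The OVX Xmo libraries lay below the OVX saline libraries by a narrow margin, and sham saline held both the lowest and the highest library of all 15. The log2 fold change in OVX Xmo against OVX saline was −0.22, with a 95% interval of −0.70 to 0.27 (edgeR adjusted p = 0.998). Sgf29 on the other strand overlaps 1.71% of the Sult1a1 span and reached 11.2 CPM.

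Counted together, 1 of the 9 members passed in 1 comparison, and none passed in the other 5 with edgeR. In OVX saline against sham saline 1 of 9 members passed and rose (Tsc22d3), where 6.24% of all 19969 genes passed, and the median log2 fold change was −0.06 over the members and 0.01 over all genes. Values did not overlap between these groups for 2 members, Tsc22d3 and Fkbp5, where 24.5% of all genes did not overlap. In OVX Xmo against OVX saline no member passed with edgeR, and 0% of all genes did. The smallest edgeR adjusted p over all genes in that comparison was 0.302, with 834 genes and no member at an unadjusted p under 0.05, and DESeq2 called 3 genes and no member. Sult1a1 was the 1 member without overlap there, against 3.11% of all genes.

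In sham Xmo against sham saline no member passed with edgeR, where 1.51% of all genes did, and 2 members (Tsc22d3 and Hsd11b1) had an unadjusted p under 0.05, as did 18.4% of all genes. Hsd11b1 was the 1 member without overlap, against 14.2% of all genes. In OVX Xmo against sham Xmo no member passed, where 0.01% of all genes did, 2 members (Fkbp5 and Sgk1) and 10.2% of all genes had an unadjusted p under 0.05, and the 1 member without overlap (Sgk1) stood against 5.88% of all genes. In OVX Xmo against sham saline no member passed with edgeR and 1, Tsc22d3, passed with DESeq2, where 1.19% of all genes passed with edgeR. DESeq2 called 1087 genes in that comparison and edgeR 237. There 2 members (Fkbp5 and Tsc22d3) and 18.9% of all genes had an unadjusted p under 0.05, and the same 2 members did not overlap, against 14.9% of all genes. For the interaction no member passed, where 0.416% of all genes did, and 1 member (Tsc22d3) and 17.4% of all genes had an unadjusted p under 0.05. DESeq2 called no member in sham Xmo against sham saline, in OVX Xmo against sham Xmo or in the interaction.

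**Figure D3:**
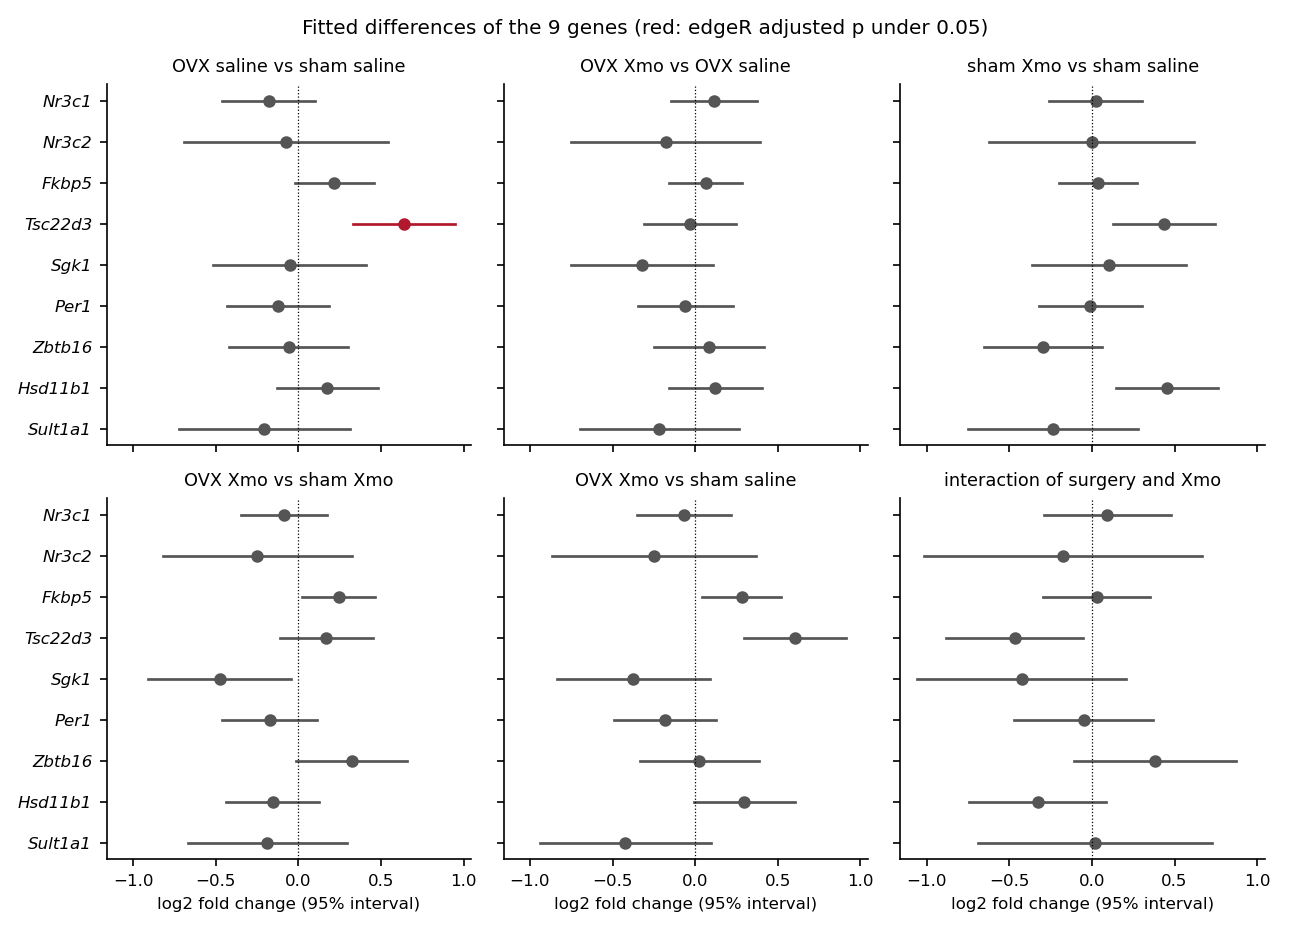
Log2 fold changes (x axis) of the 9 members in the 6 comparisons, 1 panel each, with 95% intervals from edgeR's quasi-likelihood fit; red marks an adjusted p under 0.05. Tsc22d3 in OVX saline against sham saline, at 0.64, is the single red point.

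Other genes of the pathway were read from 8 lists, and at most 2 genes of any list passed in any comparison. Of all genes, 6.24% passed in OVX saline, 1.51% in sham Xmo and 1.19% in OVX Xmo, each against sham saline. For the interaction 0.416% of all genes passed. Of 26 other glucocorticoid-responsive genes, 0 rose and 2 fell in OVX saline against sham saline, with a list median of 0.05 against 0.01 for all genes. The 2 were Lcn2, which encodes the secreted iron carrier lipocalin 2 of the acute phase, and Tle3, a corepressor. Lcn2 had 0.276, 0, 0.325 and 0 CPM in OVX saline, against 4.64, 98.6 and 8.41 CPM in sham saline, where sham saline 2 was far above the others. Its fitted log2 fold change was −7.79 (SE 1.12, edgeR adjusted p = 0.00876), a size that depends on the prior count because 2 libraries were at 0. Tle3 fell by 0.50 on the log2 scale (SE 0.13, edgeR adjusted p = 0.0422), with 17.1 to 25.5 CPM in OVX saline against 28.4 to 33.5 CPM in sham saline, and passed in 12 of 23 alternative analyses, whereas Lcn2 passed in all 23. Against the same sham saline libraries the log2 fold change of Tle3 was −0.55 in sham Xmo (edgeR adjusted p = 0.0536). In OVX Xmo it was −0.36 (edgeR adjusted p = 0.166), and neither passed.

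In sham Xmo against sham saline, where 1.51% of all genes passed, 1 of these 26 rose and 1 fell. Sesn1, a stress-induced inhibitor of growth signalling, rose by a log2 fold change of 0.42 (SE 0.10, edgeR adjusted p = 0.0490), with 60.3, 67.8, 73.9 and 73.3 CPM in sham Xmo against 58.5, 49.9 and 46.4 CPM in sham saline. The Sesn1 call held in 5 of 23 alternative analyses. Its log2 fold change was also 0.34 in OVX saline (edgeR adjusted p = 0.05001) and 0.24 in OVX Xmo (edgeR adjusted p = 0.2005), each against sham saline. Neither passed, the first just missing the threshold of 0.05. Sesn1 did not overlap between OVX saline and sham saline, as was so for 24.5% of all genes. Lcn2 had 1.19, 0.755, 0.416 and 0.817 CPM in sham Xmo and fell by 5.54 (SE 0.95, edgeR adjusted p = 0.0188). In OVX Xmo, Lcn2 had 0.486, 0.758, 0.408 and 2.13 CPM, and it fell against sham saline by 5.30 (SE 0.95, edgeR adjusted p = 0.0316). The Lcn2 call held in 18 of 23 alternative analyses for sham Xmo and in 12 of 23 for OVX Xmo. Without sham saline 2 the log2 fold change of Lcn2 was −5.30 in OVX saline (edgeR adjusted p = 0.0182), −3.04 in sham Xmo (edgeR adjusted p = 0.0548) and −2.79 in OVX Xmo (edgeR adjusted p = 0.152), each against the remaining sham saline libraries. Lcn2 is also a marker of inflamed astrocytes and of neutrophils. The 3 neutrophil genes of the blood list (S100a8, S100a9 and Ngp, which encode granule and cytosolic proteins of neutrophils) were likewise highest in sham saline 2. Summed, they had 2.67, 1.77, 2.54 and 1.83 CPM in OVX Xmo, 0.777, 0.612, 0.130 and 0 CPM in OVX saline and 1.29, 0.341, 0.0693 and 4.90 CPM in sham Xmo, against 3.63, 36.5 and 6.81 CPM in sham saline. Sham saline 2 was the highest library for this sum as it was for Lcn2, and the sham saline range met the others only through sham Xmo 4. That library, at a sum of 4.90 CPM, had 0.817 CPM of Lcn2, whereas OVX Xmo 4, at 1.83 CPM, had 2.13 CPM. S100a9 fell by 6.42 on the log2 scale in OVX saline (SE 0.99, edgeR adjusted p = 0.00945) and fell by 3.44 in sham Xmo (SE 0.77, edgeR adjusted p = 0.0404), each against sham saline. Ngp fell by 5.20 in OVX saline against sham saline (SE 1.22, edgeR adjusted p = 0.0278), and with OVX saline libraries at 0 the fitted size of both genes there depends on the prior count. In OVX Xmo against sham saline none of the 3 passed. The sum of the whole blood list of 6 genes, which the haemoglobin genes carry, was 524 to 1279 CPM in OVX Xmo, 545 to 867 CPM in OVX saline, 344 to 3274 CPM in sham Xmo and 318 to 1704 CPM in sham saline. The part of neutrophils in the Lcn2 level was not tested. In the interaction of surgery and Xmo, Lcn2 passed at 8.02 (SE 1.46, edgeR adjusted p = 0.0410). There 1 of the 6 blood and neutrophil genes also passed upwards, where 0.416% of all genes passed. No gene of the glucocorticoid-responsive list passed in OVX Xmo against OVX saline or against sham Xmo.

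Of 13 receptor chaperones, the heat shock proteins and partners that hold the receptors ready for hormone, 0 passed in either direction in any of the 6 comparisons. Their median log2 fold change ran from −0.04 in sham Xmo against sham saline to 0.12 in the interaction. Of 13 nuclear receptor coregulators, 1 rose and 1 fell in OVX saline against sham saline, where 6.24% of all genes passed. The list median was −0.15. Hdac3, the deacetylase of corepressor complexes, had 87.2, 88.3, 75.8 and 80.8 CPM in OVX saline against 53.9, 62.0 and 67.4 CPM in sham saline (log2 fold change 0.44, SE 0.12, edgeR adjusted p = 0.0456). Ppargc1a, the coactivator of mitochondrial biogenesis, had 48.3, 45.5, 51.9 and 47.2 CPM in OVX saline against 62.8, 80.5 and 78.5 CPM in sham saline (log2 fold change −0.62, SE 0.12, edgeR adjusted p = 0.0165). The Hdac3 call held in 8 of 23 alternative analyses and the Ppargc1a call in 18. Against the same sham saline libraries, sham Xmo gave 0.22 for Hdac3 (edgeR adjusted p = 0.364) and −0.43 for Ppargc1a (edgeR adjusted p = 0.0724). OVX Xmo gave 0.20 for Hdac3 (edgeR adjusted p = 0.396) and −0.34 for Ppargc1a (edgeR adjusted p = 0.146), and none of these passed.

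Of 15 genes of steroid metabolism and transport, 12 were tested and 0 passed in any comparison, and their median log2 fold change was 0.23 in OVX saline, 0.24 in sham Xmo and 0.26 in OVX Xmo, each against the same sham saline libraries. Of 5 other steroid hormone receptors 4 were tested. In OVX saline against sham saline, where 6.24% of all genes passed, 1 of these fell. This was Pgr, the progesterone receptor, which oestrogen is known to induce, with 15.1, 12.7, 13.0 and 15.2 CPM in OVX saline against 22.7, 21.2 and 24.4 CPM in sham saline (log2 fold change −0.70, SE 0.15, edgeR adjusted p = 0.0202), a call that held in 18 of 23 alternative analyses. In OVX Xmo Pgr had 18.8, 16.3, 17.1 and 21.0 CPM, above every OVX saline library, where 3.11% of all genes did not overlap. Its log2 fold change between those groups was 0.39 (SE 0.14, edgeR adjusted p = 0.998). In sham Xmo Pgr had 12.6 to 20.2 CPM, below every sham saline library, where 14.2% of all genes did not overlap. Its log2 fold change against sham saline was −0.48 (SE 0.15, edgeR adjusted p = 0.105), which did not pass. In OVX Xmo against sham Xmo the log2 fold change of Pgr was 0.17 (SE 0.14, edgeR adjusted p = 0.733), upwards and not past the test. The part of oestrogen in the Pgr level was not tested. Of 10 genes of the corticotropin-releasing hormone system 6 were tested and 0 passed in any comparison.

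In OVX saline against sham saline, where 6.24% of all genes passed, 1 of 17 circadian clock genes fell, and none passed elsewhere. Nr1d1, a clock repressor also called REV-ERB alpha, had 60.6, 64.2, 74.6 and 73.3 CPM in OVX saline against 98.2, 86.1 and 142 CPM in sham saline (log2 fold change −0.68, SE 0.15, edgeR adjusted p = 0.0246), a call that held in 18 of 23 alternative analyses. Against the same sham saline libraries it was −0.40 in sham Xmo (edgeR adjusted p = 0.1835) and −0.57 in OVX Xmo (edgeR adjusted p = 0.0737). Neither passed. The 14 immediate early genes, which neuronal activity and handling switch on within minutes, gave 0 calls in every comparison. Of them 11 lay lower in OVX saline, 12 in sham Xmo and 9 in OVX Xmo than in sham saline, with list medians of −0.20, −0.29 and −0.11 on the log2 scale. Over all genes 49.5%, 46.6% and 48.6% lay lower in the same 3 comparisons. No gene of these 8 lists passed in OVX Xmo against OVX saline or against sham Xmo with edgeR.

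Within groups the members did not follow each other in a way that passed a test. Each member's log2 CPM was centred on its group mean, and the 36 pairs were tested by an exact two-sided permutation within groups (82944 permutations), with Benjamini-Hochberg adjustment over the 36 pairs. No pair passed by Pearson's r or by Spearman's rho, 3 had an unadjusted Pearson p under 0.05, and 18 of the 36 correlations were positive. Nr3c1 and Fkbp5 gave r = −0.79 and rho = −0.70 (exact permutation p = 0.00725 and 0.0311, adjusted p = 0.239 and 0.393, n = 15), and r = −0.68 without the 2 libraries farthest from the median of Nr3c1. Sgk1 and Sult1a1 gave r = 0.88 and rho = 0.70 (exact permutation p = 0.0133 and 0.0299, adjusted p = 0.239 and 0.393, n = 15), and r = 0.51 without the 2 farthest libraries. Sham saline 2 holds the highest value of both of these genes. Nr3c1 and Per1 gave r = −0.67 and rho = −0.70 (exact permutation p = 0.0420 and 0.0327, adjusted p = 0.503 and 0.393, n = 15), and r = −0.32 without the 2 farthest, so this relation rests on those libraries. All pairs share library, depth and dissection.

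**Figure D4:**
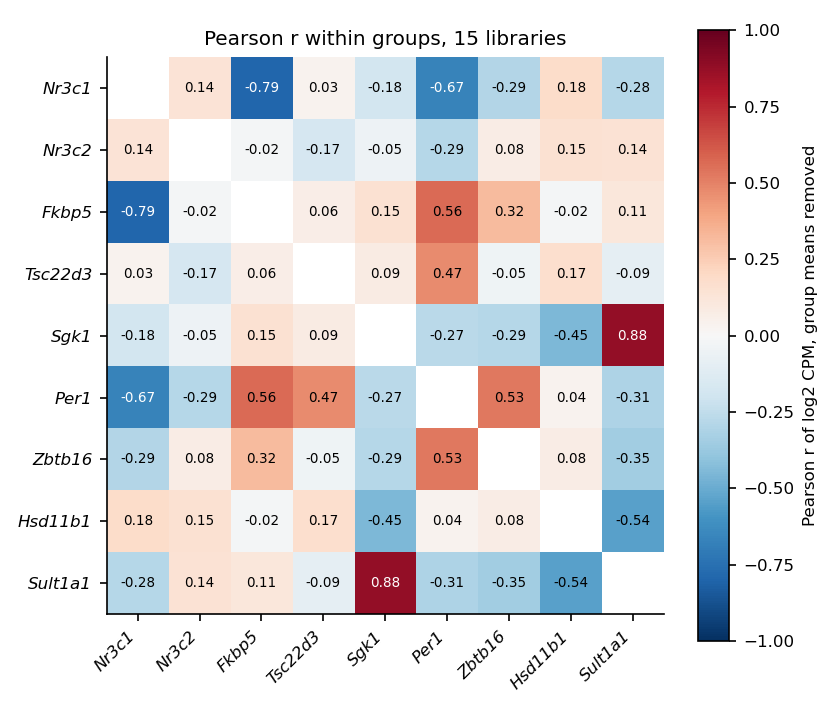
Pearson correlation between members after the group mean was removed, over 15 libraries, for all 36 pairs, with the gene on each axis; colour runs from −1 to 1. The darkest cells are Sgk1 with Sult1a1 (0.88) and Nr3c1 with Fkbp5 (−0.79), and no pair passed after adjustment.

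Over all 15 libraries, group differences included, the 3 genes with log2 CPM most like each member were taken from the 19969 tested genes, as a description. For Tsc22d3 these were Pink1 (r = 0.92), H2afv (r = 0.91) and Phlda3 (r = 0.91), and with group means removed their r was 0.78 to 0.80. For Sgk1 they were Gm42644 (r = 0.93), Gm44907 (r = 0.90) and Arrdc2 (r = 0.89), the last of which is also on the glucocorticoid-responsive list. Arrdc2 was highest in sham saline 2, at 17.9 CPM, the library that was highest for Sgk1. For Nr3c1 they were Dync1li2 (r = 0.91), Foxn3 (r = 0.90) and Ugt8a (r = 0.89), and for Nr3c2 AC121965.1 (r = 0.86), Gm14569 (r = 0.86) and Mis18a (r = 0.83). For Fkbp5 they were Thap7 (r = 0.87), Nicn1 (r = 0.86) and Zfr2 (r = 0.85), and for Per1 Crhr2 (r = 0.83), Ptges (r = 0.82) and Slc39a4 (r = 0.80). For Zbtb16 they included Tmem44 (r = 0.85) and Ankrd22 (r = 0.84). For Hsd11b1 they were Itm2a (r = 0.89), Slc35f5 (r = 0.83) and Sat2 (r = 0.83), and for Sult1a1 Klhl6 (r = 0.87), Bin2 (r = 0.86) and 1810009A15Rik (r = 0.83). Apart from Arrdc2, and Crhr2 of the corticotropin-releasing hormone list, none of these genes belongs to the members or their lists. Some lay near the floor, so their r is less certain. Gm44907 reached at most 0.998 CPM, Ankrd22 1.21 CPM and Slc39a4 1.88 CPM.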

How the data were processed

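Gene expression was measured in 15 hippocampus libraries in 4 groups. Per the labels' protocols, tissue was flash frozen, RNA was taken with Trizol and libraries were made from total RNA with a TruSeq kit. Per the submitters' processing notes, the tools were StringTie 1.3.3b, Bowtie2 2.3.2, Trimmomatic 0.36 and FastQC 0.11.2, with the build GRCm38.p6. Use of strand is not stated in the labels. The authors deposited raw counts, TPM and FPKM per gene, per the file headers; counts were tested, TPM gave levels between genes, and FPKM was not used in any result. A further 12 per-sample columns match no sample and were not used, nor was the miRNA table.

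Counts were filtered with filterByExpr, scaled by TMM and fitted on all 4 groups with edgeR 4.0.16's quasi-likelihood test (R 4.3.3, 11 residual degrees of freedom). Calls used a Benjamini-Hochberg adjusted p under 0.05 over 19969 genes. Standard errors and 95% intervals came from each fold change with its F value, and log2 CPM used a prior count of 2. Alternatives were DESeq2 1.42.0, limma 3.58.1 on log2(TPM + 0.1) as deposited and after centring (chosen after seeing the data), other size factors, no filter, the groups of a comparison alone, no mitochondrial genes, a replicate block and each library left out. Scripts were tested on simulated data. In counts simulated for OVX saline against sham saline, the test recovered 7 of 67 changes of 0.5 (log2), 45 of 67 of 1 and 64 of 66 of 2. Differences of the size seen in the members can thus be missed. The members and lists were chosen with earlier results of these data known. All members are named; from each list at most 3 genes past the test with the smallest p, and for each member the 3 most alike genes, 1 of which is not reported here.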

Additional observations from a re-analysis of the deposited data

Results flagged for a closer look

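Lcn2, on the list of glucocorticoid-responsive genes, was set aside because its Xmo effect differed between surgery groups by a test of that difference. The interaction of surgery and Xmo was 8.02 on the log2 scale (SE 1.46, edgeR adjusted p = 0.0410). It had 0.486, 0.758, 0.408 and 2.13 CPM in OVX Xmo and 0.276, 0, 0.325 and 0 CPM in OVX saline, and 1.19, 0.755, 0.416 and 0.817 CPM in sham Xmo against 4.64, 98.6 and 8.41 CPM in sham saline. The fitted size depends on the prior count, because 2 OVX saline libraries were at 0. Under the alternatives the interaction ran from 5.55 to 8.56, with adjusted p between 0.000182 and 0.0943, and it passed in 12 of 22. Of the 6 blood and neutrophil genes 1 also passed upwards in the interaction, where 0.416% of all genes passed. The median of that list was 2.64, against −0.02 for all genes, with 5 genes above 0 and 1 below. The part of neutrophils in the Lcn2 interaction was not tested. Among the members, no library stood far from the others of its group by Dixon's test in 27 combinations of gene and group with 4 libraries, where chance gives about 1 in 20. Sham saline, with 3 libraries, was not put to this test. Its libraries 1 to 3 had 58.9, 134 and 70 CPM of Sgk1 and 8, 22 and 11.2 CPM of Sult1a1.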

How the results depend on the processing

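The rise of Tsc22d3 in OVX saline against sham saline passed in 17 of 23 alternatives (log2 fold change 0.54 to 0.79, and 1.18 with unscaled TPM; adjusted p 0.00208 to 0.0917). Over all members and comparisons, 1203 of 1233 alternative values kept their call or lack of one, 6 lost a call and 19 gained one. The other 5, all with unscaled TPM, passed with the opposite sign to a main value that had not passed. Of the 1203, 73 changed sign with neither value past the test. Limits are the small groups and the 3 sham saline libraries, which enter 4 of the 6 comparisons and of which 2 (sham saline 2 and 3) stand apart in mitochondrial share.

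With deposited TPM left unscaled, the median of all genes moved by 0.61, 0.54, 0.60 and −0.55 (log2) in OVX saline, sham Xmo and OVX Xmo against sham saline and in the interaction. The genes past the test were then 9609 (9516 higher, 93 lower), 7355 (7304 and 51), 9502 (9443 and 59) and 1820 (19 and 1801), where the counts had given 728 and 518, 144 and 158, 149 and 88, and 54 and 29. They included 7, 5, 5 and 1 members, with 0 genes in OVX Xmo against sham Xmo, and 2 correlated pairs passed. Where either value passed, unscaled TPM reversed the sign, in OVX saline against sham saline, of Nr3c1 (0.58), Sgk1 (0.69), Zbtb16 (0.64), Sult1a1 (0.58), Ppargc1a (0.18) and Tle3 (0.34). In OVX Xmo against sham saline it reversed that of Nr3c1 (0.69). The members among these passed only with unscaled TPM, and Ppargc1a and Tle3 only with counts. After centring TPM, genes past the test were 135 in OVX Xmo against sham saline, with 1 member, Tsc22d3 (0.64, limma adjusted p = 0.0469), 22 in the interaction (19 higher, 3 lower) and 0 in OVX Xmo against sham Xmo, and the 226 in sham Xmo against sham saline were 81 higher and 145 lower.

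Without the filter on low counts, 568 genes passed in OVX saline, 108 in sham Xmo and 56 in OVX Xmo against sham saline, and 20 in the interaction. DESeq2 called 2322, 1117 and 1087 genes in the same 3 comparisons and 824 in the interaction, 3 in OVX Xmo against OVX saline and 76 in OVX Xmo against sham Xmo. It added 1 member, Tsc22d3 in OVX Xmo against sham saline (0.59, DESeq2 adjusted p = 0.00623). Fitting only the groups compared gave 1 gene in OVX Xmo against OVX saline, 6 in sham Xmo against sham saline, 0 in OVX Xmo against sham Xmo and 4 in OVX Xmo against sham saline; the interaction needs all 4 groups and was not fitted so.

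The replicate numbers did not pair the libraries: same-numbered libraries had correlations of −0.21 to 0.19 over 21 pairs, 2 of them over 0.1, and 2 of 15 libraries correlated best with their own number. With the replicate block, 178 genes and 0 members passed in OVX saline against sham saline (Tsc22d3 0.64, edgeR adjusted p = 0.0610), 37 genes in sham Xmo against sham saline, 0 in OVX Xmo against sham Xmo, 2 in OVX Xmo against sham saline and 11 in the interaction.

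Leaving out each library in turn gave 80 to 1706 genes and 0 to 1 members in OVX saline against sham saline (fewest without sham saline 3, most without OVX Xmo 4), and 0 to 1 genes and no member in OVX Xmo against OVX saline. It gave 14 to 673 genes in sham Xmo against sham saline (fewest without sham saline 3, most without sham Xmo 1) and 0 to 3 in OVX Xmo against sham Xmo, with no member in either. It gave 2 to 983 genes and 0 to 2 members in OVX Xmo against sham saline (fewest genes without OVX Xmo 1 or 2, most without OVX Xmo 4), 6 to 302 genes and 0 to 1 members in the interaction (most genes without sham Xmo 1), and 0 correlated pairs. Among the other list genes named, 83 of 229 alternative values lost their call.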
